A study of Mus musculus with 4 samples.

Results

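The genes described here are the 10 MHC class I and peptide loading genes *H2-K1*, *H2-D1*, *B2m*, *Tap1*, *Tap2*, *Tapbp*, *Psmb8*, *Psmb9*, *Psmb10* and *Nlrc5*, taken by symbol from a bulk RNA-seq table of 36144 gene names. All 10 were listed under a single name, and all 10 passed the count filter (more than 10 counts in at least 2 of the 4 libraries) that left 13960 genes. RNA came from mouse colonoids, cultures grown from colonic crypts in which epithelial stem cells and their progeny form hollow 3-dimensional structures. Cultures at passage 3 were left untreated or given 2 mM sodium butyrate, a short chain fatty acid made by gut bacteria, and were collected at 48 h or 72 h. Each of the 4 conditions is a single library. The labels describe every library as from a male wild-type mouse aged 24 weeks, whereas the study describes the sequenced colonoids as derived from a single mouse of Hes1-GFP, a reporter line. The labels of the untreated libraries give their time as day 2 or day 3 only. All cultures, controls included, grew in medium with EGF, Noggin, R-spondin, CHIR99021 and Y-27632, so the untreated group is a culture kept in a state of strong Wnt signalling. The comparison asked whether class I genes followed the class II genes, of which *H2-Ab1*, *H2-Eb1*, *Cd74* and others with enough counts were higher with butyrate.

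MHC class I molecules display peptides from inside the cell at its surface to CD8 T cells, and nearly all nucleated cells make them. The heavy chain (*H2-K1* and *H2-D1* in the mouse) pairs with beta-2 microglobulin (*B2m*), and peptides cut by the proteasome are carried into the endoplasmic reticulum by the TAP transporter (*Tap1*, *Tap2*) and loaded with the help of tapasin (*Tapbp*). Under interferon, the catalytic subunits of the proteasome are replaced by those of the immunoproteasome (*Psmb8*, *Psmb9*, *Psmb10*), and *Nlrc5* is the transactivator of class I genes, the counterpart of *Ciita* for class II.

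In the colonoids the members did not behave as a block. At 48 h with butyrate, *Psmb8* and *Nlrc5* had the largest fold changes (10.3-fold and 7.39-fold of untreated), *Tap2*, *Psmb9* and *Tap1* followed (2.75-fold, 2.43-fold and 1.85-fold), *H2-K1* and *H2-D1* were 1.39-fold of untreated, *B2m* 1.09-fold and *Tapbp* 1.00-fold, and *Psmb10* was lower, at 0.544-fold. At 72 h the log2 fold change was closer to 0 for 9 of the 10 genes, all but *Tapbp*, and for *Tap1*, *Psmb9* and *Nlrc5* the counting interval of the difference between the times included 0. *H2-D1* and *Tapbp* were below the untreated library at 72 h, and *Psmb10* was lower at both times. The median log2 fold change was 0.68 and 0.24 over the members at 48 h and 72 h, and 2.60 and 2.75 over the 5 class II genes that passed the filter. Both lists hold genes that passed only through their butyrate libraries. Over genes that averaged 50 or more normalised counts, which leaves out *Nlrc5*, the medians were 0.48 and 0.05 for the members and 2.60 and 2.55 for class II. With no count filter they were 0.68 and 0.24 for the members and 1.49 and 2.43 for class II, which then takes in nearly empty genes. With 1 library per condition, no difference could be set against replicate error and no p-value was computed. All intervals below are 95% intervals for counting error alone, and reads that carry no molecular identifier are not independent molecules.

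The class I heavy chain promoters are known for a pair of control blocks, and their sequences are shown so that the members can be compared at the level of DNA. *H2-K1* and *H2-D1* had nearly the same log2 fold change at 48 h (0.47 and 0.48) but opposite signs at 72 h (0.05 and -0.09), and likeness of sequence was not tested against the fold changes. In general, an upper block holds a site for NF-kB beside an element for interferon regulatory factors, and a lower block, the SXY module, holds an X2 box of the CREB type and a Y box of the CCAAT type and is used by the RFX complex together with NLRC5. The sequences are from RefSeq for GRCm38.p6, on the strand of the gene, 5′ to 3′, and capitals mark matches to 4 motifs, namely TGACG, the motif CCAAT (which reads ATTGG on the other strand), the motif GAANNGAAA and the motif GGGGATTCC. The stretches upstream of *H2-K1* (chr17:34000348-34000597, minus strand), *B2m* (chr2:122147437-122147685, plus strand) and *Psmb10* (chr8:105938445-105938642, minus strand) read as follows.
H2-K1: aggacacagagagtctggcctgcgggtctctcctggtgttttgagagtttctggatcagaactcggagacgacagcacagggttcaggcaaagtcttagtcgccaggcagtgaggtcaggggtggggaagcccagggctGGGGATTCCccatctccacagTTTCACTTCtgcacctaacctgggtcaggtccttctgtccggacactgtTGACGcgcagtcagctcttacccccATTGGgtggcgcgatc
B2m: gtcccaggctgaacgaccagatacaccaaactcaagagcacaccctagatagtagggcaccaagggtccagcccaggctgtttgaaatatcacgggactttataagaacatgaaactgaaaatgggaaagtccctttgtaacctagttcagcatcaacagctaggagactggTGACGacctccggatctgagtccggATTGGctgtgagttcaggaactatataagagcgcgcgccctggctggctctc
Psmb10: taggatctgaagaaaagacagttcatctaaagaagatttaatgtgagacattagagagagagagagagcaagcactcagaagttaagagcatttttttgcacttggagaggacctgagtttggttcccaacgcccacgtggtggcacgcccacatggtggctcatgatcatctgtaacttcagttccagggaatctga

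The lower block was compared in the 3 genes that hold TGACG and ATTGG with 20 bases between them, *H2-K1* (chr17:34000359-34000388, minus strand), *H2-D1* (chr17:35262993-35263022, plus strand) and *B2m* (chr2:122147609-122147638, plus strand), where capitals mark these 2 motifs.
H2-K1: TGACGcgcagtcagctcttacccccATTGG
H2-D1: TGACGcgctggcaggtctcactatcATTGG
B2m: TGACGacctccggatctgagtccggATTGG
Of the 30 bases, *H2-K1* and *H2-D1* share 23, *H2-K1* and *B2m* share 13 and *H2-D1* and *B2m* share 12. The upper block, sought only as the motifs GGGGATTCC and GAANNGAAA, was found in *H2-K1* (chr17:34000429-34000458, minus strand) and *H2-D1* (chr17:35262923-35262952, plus strand), with capitals for both matches. Other spellings of these sites were not searched, so a member without a match, such as *B2m*, is not shown to lack such sites. Both blocks of *H2-D1* lie inside the GENCODE model of the gene, in exon sequence annotated as untranslated, while upstream of the RefSeq start.
H2-K1: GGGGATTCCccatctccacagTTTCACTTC
H2-D1: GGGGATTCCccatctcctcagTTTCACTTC
These agree at 29 of 30 bases. The motifs were searched on both strands in windows of 300 bases (250 before to 50 after the start) of 27025 genes, and 8 of the 10 members had a window. The motif TGACG was in 5 of the 8 (*B2m*, *H2-D1*, *H2-K1*, *Psmb9*, *Tap1*) and in 23.05% of all genes, and CCAAT was in those 5 and *Tapbp* and in 41.1% of all genes. The windows of *Psmb9* and *Tap1* have 275 bases in common, and their matches to these motifs are the same bases, counted for each gene. GAANNGAAA was in *H2-D1* and *H2-K1* and in 8.68% of all genes, and GGGGATTCC in the same 2 members and in 0.296% of all genes. The spaced pair, which holds a TGACG and a CCAAT match by construction, was in 27 genes, 0.0999% of all genes, 3 of them members. The gap of 20 bases and the string GGGGATTCC are those of the members' own sequences, so these shares describe the members and test nothing. *Psmb8* and *Psmb10*, which had the highest and the lowest fold change at 48 h, had none of these letters in their windows. A match describes the sequence only. Over the 21 of these 27 genes that passed the count filter, the median log2 fold change was 0.25 at 48 h, with 14 above 0, and -0.00 at 72 h, with 10 above 0. The 21 include the members *H2-K1*, *H2-D1* and *B2m*, and also *H2-M3*, all above 0 at 48 h, so they are not a separate set. Over all 13960 tested genes, 6801 were above 0 at 48 h and 7015 at 72 h.

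The library totals were between 20790225 and 24207840 counts, and a floor of 3 counts corresponds to 0.124 to 0.144 CPM, counts scaled to the library total. Mitochondrial genes took 14.1% to 18.4% of counts and were lower with butyrate than without at both times. The tissue label was checked against 9 epithelial markers, all of which passed the filter, with summed normalised counts of 154315 without and 160242 with butyrate at 48 h, and of 162185 and 145615 at 72 h. Of the 9, 5 were above untreated at 48 h and 8 were below it at 72 h, among them *Krt20*, a marker of differentiated cells (0.31 and -0.74). Of 12 immune cell markers 2 passed, *Cd68* and *Itgam*. *Cd68*, a lysosomal glycoprotein used as a macrophage marker, had 128, 1309, 172 and 420 counts in the untreated and butyrate libraries at 48 h and then at 72 h, higher with butyrate at both times. The other 11 immune markers summed to between 51.7 and 85.3 normalised counts, *Adgre1* was at 0 in every library and *Ptprc* had at most 15 counts. *Csf1r* had 1, 2, 0 and 16 counts. The fibroblast and endothelial markers summed to 117.0 normalised counts with butyrate against 120.7 without at 48 h, and to 99.4 against 166.9 at 72 h. The part of any of these in the results was not tested. In bulk RNA, fewer cells of a type and less RNA per cell cannot be told apart.

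Levels below are counts scaled with DESeq2 size factors, and a log2 fold change compares butyrate with untreated after adding a pseudocount of 1. The members spanned a wide range, from *Nlrc5* at the bottom to *H2-K1* at the top. The plot of normalised counts gives all 40 values.

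**Figure D1:**
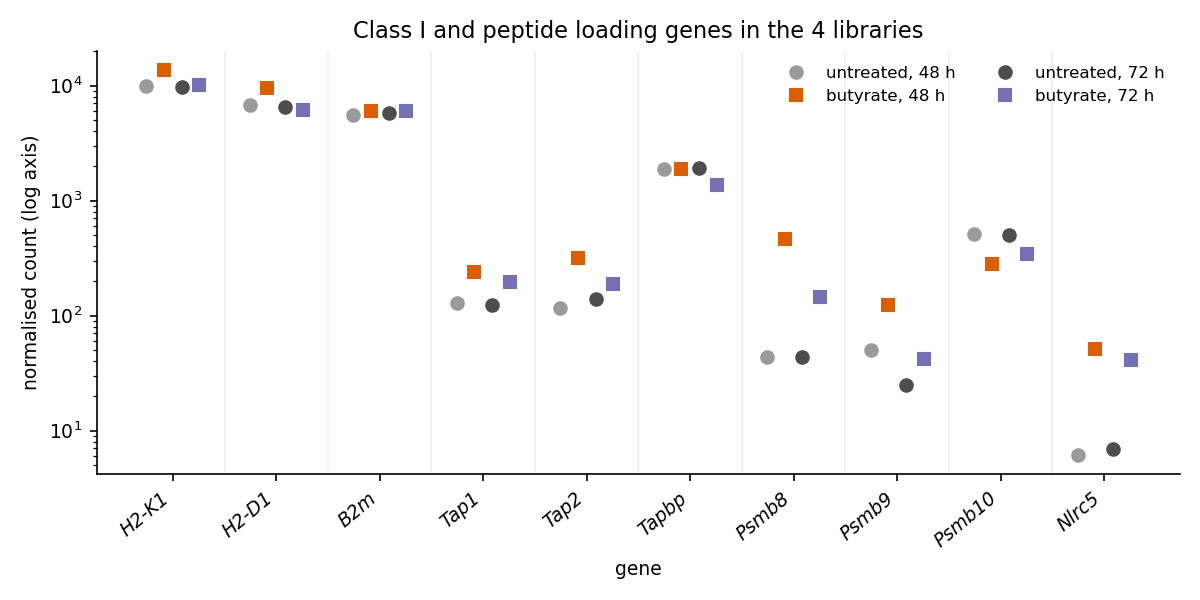
Normalised counts (log axis) of the 10 genes in each of the 4 libraries, circles for untreated and squares for butyrate, 1 library per point. *H2-K1*, *H2-D1* and *B2m* lie between 5505 and 13685, and *Nlrc5* at 6.14 and 6.91 without butyrate and at 51.7 and 41.0 with it.

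*H2-K1* (chr17:33996017-34000347, minus strand) and *H2-D1* (chr17:35262730-35267499, plus strand) encode the classical class I heavy chains. *H2-K1* went from 9880 normalised counts to 13685 with butyrate at 48 h, and from 9697 to 10037 at 72 h. *H2-D1* went from 6799 to 9467 at 48 h, and from 6532 to 6127 at 72 h. For each gene the butyrate library at 48 h was the highest and the other 3 lay close together. The log2 fold change of *H2-K1* at 48 h was 0.47 (0.43 to 0.51), against 0.05 (0.01 to 0.09) at 72 h. That of *H2-D1* was 0.48 (0.43 to 0.52) at 48 h but -0.09 (-0.14 to -0.04) at 72 h. With total count scaling the value at 72 h was -0.04, so the sign held but the value was small. The ratio of *H2-K1* to *H2-D1*, which does not depend on the scaling, was the same at 48 h within counting error (log2 change with butyrate -0.01, -0.07 to 0.05) and was higher with butyrate at 72 h (0.14, 0.08 to 0.21). The genes are similar in sequence, and 77.2% of the 31-base words of *H2-K1* and 73.1% of those of *H2-D1* occur in no other gene of the annotation. Their counts depend on how pseudoalignment, which assigns reads to transcripts without placing every base, divided the reads they share.

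*B2m* (chr2:122147686-122153083, plus strand), the light chain that every class I heavy chain needs, went from 5505 normalised counts to 6016 with butyrate at 48 h, and from 5823 to 6026 at 72 h. At 48 h the log2 fold change was 0.13 (0.08 to 0.18), and at 72 h it was 0.05 with an interval of -0.004 to 0.10 that included 0. The span from its lowest to its highest library was the narrowest of the 10 genes relative to its level, and all 31-base words of *B2m* were its own.

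*Tap1* (chr17:34187553-34197225, plus strand) and *Tap2* (chr17:34203527-34216321, plus strand) encode the subunits of the peptide transporter. *Tap1* went from 126 counts to 263 with butyrate at 48 h, and from 126 to 183 at 72 h. *Tap2* went from 113 counts to 352 with butyrate at 48 h, and from 140 to 173 at 72 h. The untreated libraries were below the butyrate libraries for each gene at both times, and each butyrate library was above both untreated libraries. The log2 fold change of *Tap1* at 48 h was 0.88 (0.58 to 1.21), against 0.66 (0.33 to 1.01) at 72 h, and its difference between the times, 72 h minus 48 h, was -0.22 (-0.67 to 0.23). For *Tap2* it was 1.46 (1.16 to 1.79) and 0.43 (0.10 to 0.77), with a difference of -1.03 (-1.48 to -0.59). Of the 31-base words of *Tap2*, 85.7% occur in no other gene and 11.3% also occur in the gene model *Gm15821*.

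*Tapbp* (chr17:33915899-33929292, plus strand), which holds empty class I molecules at the transporter, went from 1889 normalised counts to 1894 with butyrate at 48 h, and from 1916 to 1360 at 72 h. The butyrate library at 72 h was the lowest and the other 3 were close to each other. The log2 fold change at 48 h was 0.00 (-0.09 to 0.10), against -0.49 (-0.60 to -0.39) at 72 h. Of the 31-base words of *Tapbp*, 73.1% occur in no other gene and 22.1% also occur in an antisense gene model, so its counts are uncertain.

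*Psmb8* (chr17:34197721-34201454, plus strand), the immunoproteasome subunit that takes the place of *Psmb5*, went from 43 counts to 508 with butyrate at 48 h, and from 44 to 135 at 72 h. The untreated libraries were alike and both butyrate libraries were above them. Its log2 fold change at 48 h was 3.36 (2.94 to 3.87), against 1.72 (1.25 to 2.27) at 72 h, lower at 72 h by a difference of -1.64 (-2.31 to -0.98). Of its 31-base words, 86.3% occur in no other gene and 13.0% also occur in an antisense gene model.

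*Psmb9* (chr17:34181987-34187764, minus strand), which takes the place of *Psmb6*, starts beside *Tap1* on the other strand, and the RefSeq promoter windows of this pair have 275 bases in common. *Psmb9* went from 49 counts to 136 with butyrate at 48 h, and from 25 to 39 at 72 h. The untreated libraries differed from each other here, and the butyrate library at 72 h was below the untreated library at 48 h. The log2 fold change at 48 h was 1.28 (0.82 to 1.80), against 0.75 (0.01 to 1.56) at 72 h. From 48 h to 72 h *Psmb9* had a log2 difference of -0.99 without butyrate, whereas that of *Tap1*, which shares its promoter region, was -0.05. The gene models of the pair overlap by 212 bases, and 95.2% and 95.9% of the 31-base words of *Psmb9* and *Tap1* were unique to them.

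*Psmb10* (chr8:105935735-105938444, minus strand), which takes the place of *Psmb7*, went from 502 counts to 307 with butyrate at 48 h, and from 508 to 321 at 72 h. The untreated libraries were nearly equal and both butyrate libraries were below them, the opposite order to that of *Psmb8*. On the log2 scale the fold change at 48 h was -0.88 (-1.09 to -0.67), against -0.53 (-0.74 to -0.33) at 72 h. All 31-base words of *Psmb10* were its own.

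*Nlrc5* (chr8:94434356-94527272, plus strand), the class I transactivator, went from 6 counts to 57 with butyrate at 48 h, and from 7 to 38 at 72 h. The log2 fold change at 48 h was 2.89 (1.87 to 4.58), against 2.41 (1.39 to 3.98) at 72 h, with the widest intervals of the 10 genes because of its low counts. The difference between the times, taken without the pseudocount as for all genes, was -0.51 with an interval of -2.19 to 1.18, so the depth does not resolve it.

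**Figure D2:**
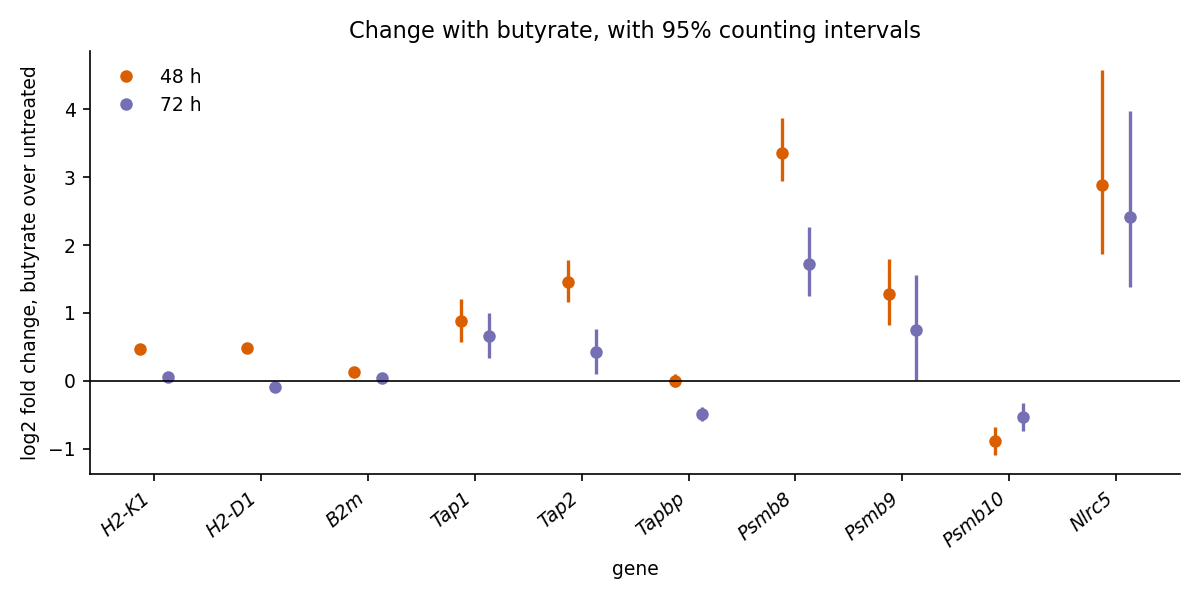
Log2 fold change of butyrate over untreated for each gene at 48 h and 72 h, with 95% counting intervals as lines (no replicates). *Psmb8* and *Nlrc5* stand highest at both times (3.36 and 2.89 at 48 h), *Psmb10* lies below 0 at both times, and *Tapbp* and *H2-D1* lie below 0 at 72 h.

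Counted together, 9 members were above and 1 was below untreated at 48 h. By at least 1.5-fold 5 were higher, where 13.1% of all tested genes were, and 1 was lower, where 8.90% were. By at least 2-fold 4 were higher (6.95% of all tested genes) and 0 were lower (3.08%). The median log2 fold change was 0.68 over the members and -0.01 over all tested genes. At 72 h, 7 members were above and 3 below untreated. By at least 1.5-fold 4 were higher (9.50% of all tested genes) and 0 lower (8.52%), and by at least 2-fold 2 were higher (4.53%) and 0 lower (3.78%). The median at 72 h was 0.24 over the members, 0.05 over the 9 without *Nlrc5*, and 0.00 over all tested genes. Both butyrate libraries were above both untreated libraries in 6 members (*H2-K1*, *B2m*, *Tap1*, *Tap2*, *Psmb8* and *Nlrc5*), an order seen in 21.7% of all tested genes, and below them in 1 (*Psmb10*), an order seen in 21.7% as well. *Nlrc5* passed the count filter only through its butyrate libraries, so its place among the higher genes was in part fixed by the filter. Without it, 4 members were higher by at least 1.5-fold and 3 by at least 2-fold at 48 h, 3 and 1 were at 72 h, and 5 had both butyrate libraries above both untreated ones. With TMM factors *Tapbp* joined *Psmb10*, and with total count scaling *H2-K1* left the 6.

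Without butyrate the members differed little between the times, with *Psmb9* as the exception. Between the untreated libraries, 0 members were higher and 1, *Psmb9*, was lower at 72 h by at least 1.5-fold (6.83% and 5.17% of all tested genes), and the median was -0.02. Between the butyrate libraries 0 were higher and 4 were lower at 72 h by that fold (9.67% and 11.9% of all tested genes), namely *Psmb8* (0.318-fold), *Psmb9* (0.347-fold), *Tap2* (0.586-fold) and *H2-D1* (0.647-fold), with a median of -0.46. *B2m* was at 1.00-fold, and *Psmb10* was the member with the largest difference upward, at 1.24-fold. The summed share of the members was 1130 CPM without butyrate and 1481 CPM with it at 48 h, and 1066 and 1092 CPM at 72 h, and *H2-K1*, *H2-D1* and *B2m* make up most of it.

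Immunoproteasome subunits were also set against their constitutive partners as ratios within a library, which are independent of the scaling. *Psmb5*, *Psmb6* and *Psmb7* encode the constitutive catalytic subunits, and none of them differed by 1.5-fold at either time, with log2 fold changes between 0.24 and 0.26 at 48 h and between -0.04 and 0.10 at 72 h. Per kb of exon, *Psmb8* stood at 0.0104 of *Psmb5* without butyrate and 0.0913 with it at 48 h, and at 0.0102 and 0.0351 at 72 h. At 48 h the log2 change of this ratio was 3.14 (2.67 to 3.64), compared with 1.78 (1.27 to 2.33) at 72 h. Of the 31-base words of *Psmb5*, 28.3% occur in no other gene, so the counts behind this ratio are uncertain. The ratio of *Psmb9* to *Psmb6* was 0.0155 and 0.0324 at 48 h and 0.00705 and 0.0121 at 72 h, a log2 change of 1.06 (0.57 to 1.58) and 0.78 (0.01 to 1.57). The ratio of *Psmb10* to *Psmb7* was 0.647 and 0.292 at 48 h and 0.649 and 0.419 at 72 h, a change of -1.15 (-1.38 to -0.92) and -0.63 (-0.86 to -0.40). Per kb of exon, *Psmb10* had the highest ratio to its partner in each library, an order between genes that rests on the lengths used. Its ratio was lower with butyrate at both times, while the other ratios were higher.

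**Figure D3:**
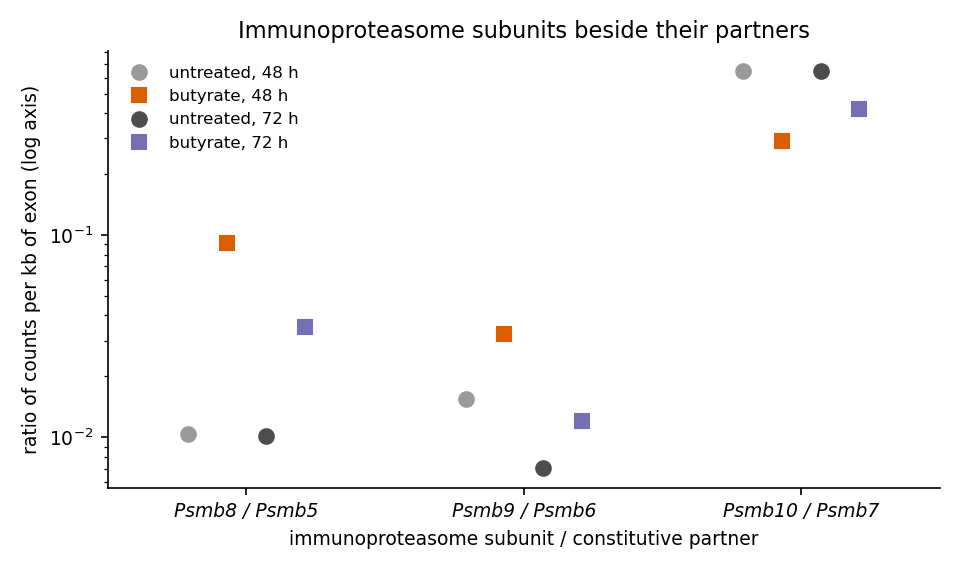
Ratio of counts per kb of exon (log axis) of each immunoproteasome subunit to the constitutive subunit it replaces, in each of the 4 libraries, 1 point per library. *Psmb8* to *Psmb5* is 0.0913 with butyrate at 48 h against 0.0104 without, and *Psmb10* to *Psmb7* is 0.292 against 0.647.

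The order of levels per kb of exon began with *B2m* (6401 to 7006 normalised counts per kb), *H2-K1* (3301 to 4658), *H2-D1* (2376 to 3671), *Tapbp* (374.8 to 528.0) and *Psmb10* (163.4 to 301.1) in all 4 libraries. *Tap1*, *Tap2*, *Psmb8* and *Psmb9* took the sixth to ninth places in varying order. *Psmb8* stood at 13.0 and 12.9 per kb without butyrate, and at 136.3 and 43.1 with it, and *Nlrc5* came last in every library, at 0.722 and 0.814 without butyrate and 6.09 and 4.83 with it. Without replicates, the order of neighbours among the sixth to ninth places was not tested. With coding length in place of exon length, a choice made after the data were seen, the first 4 places and the last did not move, and *Psmb8* stood ahead of *Psmb10* in the butyrate library at 48 h.

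The class II genes were set beside the members as 10 genes: the chains *H2-Aa*, *H2-Ab1* and *H2-Eb1*, the invariant chain *Cd74*, the loading factors *H2-DMa*, *H2-DMb1*, *H2-DMb2*, *H2-Oa* and *H2-Ob*, and the transactivator *Ciita*. Of these 5 passed the filter, with medians of 2.60 and 2.75. All 5 were higher by at least 2-fold at 48 h, as were 4 at 72 h. *H2-Eb1*, with 8, 74, 4 and 30 counts in the untreated and butyrate libraries at 48 h and then at 72 h, passed only through the butyrate libraries, and *H2-DMb1*, with 18, 49, 4 and 45, would not have passed on the untreated libraries alone. The counts of this list therefore rest in part on the filter, and the medians were also taken with other filters. Over the 3 genes that averaged 50 or more normalised counts, which leaves out *H2-Eb1* and *H2-DMb1*, they were 2.60 at 48 h and 2.55 at 72 h. With no count filter, over 9 genes, they were 1.49 and 2.43. That 1.49 is the value of *H2-Ob*, with 0 counts without and 2 with butyrate, and 2.43 is that of *Ciita*. *Cd74*, the chaperone of class II molecules, went from 149 counts to 1112 with butyrate at 48 h, and from 73 to 454 at 72 h, with log2 fold changes of 2.72 and 2.75. *H2-Ab1*, a class II beta chain, went from 86 counts to 592 with butyrate at 48 h, and from 53 to 288 at 72 h (2.60 and 2.55). *H2-Ab1* lies in the same stretch of chromosome 17, 41367 bases beyond the end of *Tap2*. Its alpha chain partner *H2-Aa* had at most 6 counts in any library, and *Ciita* went from 7 counts to 15 with butyrate at 48 h, and from 1 to 9 at 72 h, so neither passed the filter. *H2-DMa* was higher by 2.07 at 48 h, and its value of 0.28 (-0.17 to 0.74) at 72 h was not distinguishable from 0 by counting error.

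Relative to *Cd74*, *B2m* was lower with butyrate by a similar amount at both times. At 48 h the log2 change of the ratio of *B2m* to *Cd74* was -2.60 (-2.86 to -2.35), compared with -2.72 (-3.10 to -2.35) at 72 h, and per kb the ratio went from 70.5 to 11.6 at 48 h and from 157.7 to 24.0 at 72 h. The 5 class II genes ranged from 1.23 to 2.89 at 48 h. *Tap2* and *Psmb9* lay within this range, *Nlrc5* at its upper end, *Psmb8* above it and the other 6 members below it. At 72 h the class II range, 0.28 to 3.33, took in *Tap1*, *Tap2*, *Psmb8*, *Psmb9* and *Nlrc5*. Its ends are *H2-DMa* and *H2-DMb1*, and *H2-DMb1* is also the lower end at 48 h. *H2-DMb1* had 4 counts without and 45 with butyrate at 72 h, and 68.6% of its 31-base words occur in no other gene. *H2-Ab1* (2.55), *Cd74* (2.75) and *H2-Eb1* (2.75) lay above all members at 72 h. The comparisons of both lists rest on the same libraries.

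**Figure D4:**
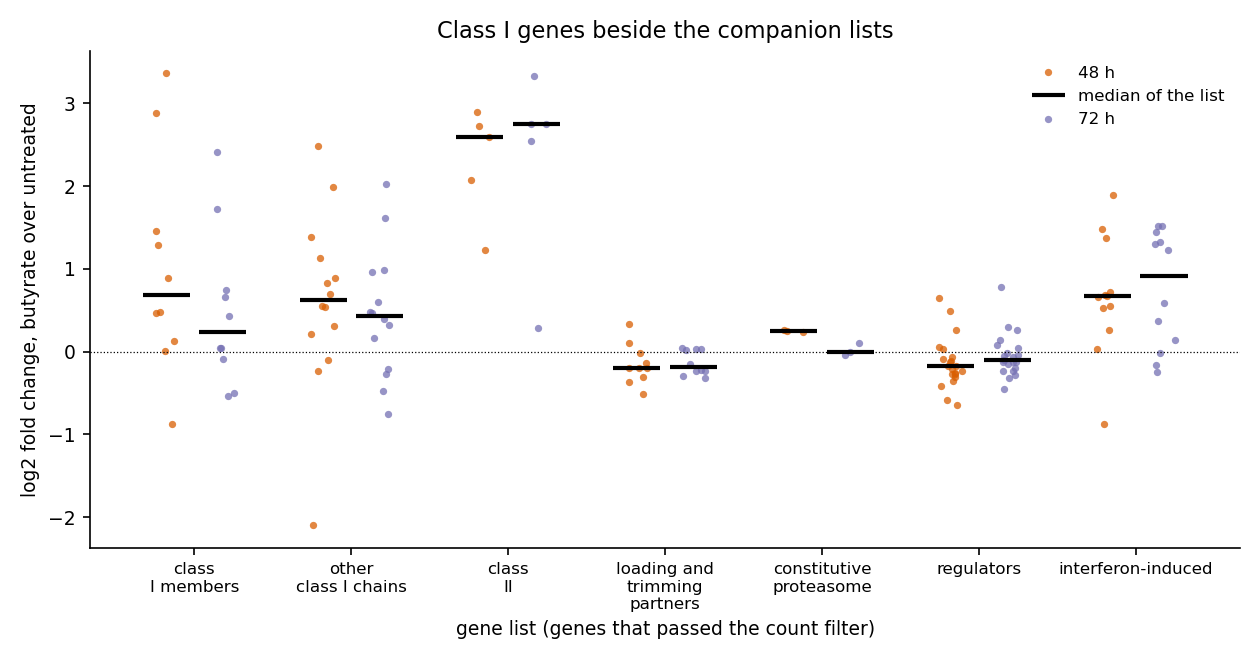
Log2 fold change of butyrate over untreated for each gene that passed the filter (points) and the median (black bars) in the members and 6 companion lists, at 48 h (orange) and 72 h (purple). The class II medians are 2.60 and 2.75, those of the members 0.68 and 0.24, and those of the loading and trimming partners -0.20 and -0.19.

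The other class I chains are the Qa, Tla and related genes, of which 14 of 16 passed the filter. At 48 h 7 were higher and 1 lower by at least 1.5-fold, with a median of 0.62, and at 72 h 5 were higher and 1 lower, with a median of 0.43. *H2-Q6* and *H2-Q7*, which encode Qa-2, a non-classical class I molecule, had the highest fold changes. *H2-Q7* went from 253 counts to 1136 with butyrate at 48 h, and from 254 to 710 at 72 h, with log2 fold changes of 1.99 (1.80 to 2.20) and 1.61 (1.40 to 1.82). *H2-Q6* went from 92 counts to 584 with butyrate at 48 h, and from 92 to 345 at 72 h (2.48 and 2.02). Only 48.2% of the 31-base words of *H2-Q6* and 60.8% of those of *H2-Q7* are found in no other gene. The pair was also summed, which gave 2.14 at 48 h and 1.73 at 72 h. The sum does not settle the sharing, since *H2-Q6* shares 24.6% of its words with *H2-Q4* and *H2-Q7* shares 22.4% with *H2-Q10*. With that limit, the summed values exceed the fold changes of *H2-K1* and *H2-D1* at the same times. *H2-M3*, which presents formylated peptides and also carries the spaced pair of motifs, went from 32 counts to 80 with butyrate at 48 h, and from 48 to 67 at 72 h (1.13 and 0.60). *H2-T23*, the Qa-1 gene, was at -0.10 at 48 h, with an interval of -0.22 to 0.02 that included 0, and at -0.21 at 72 h. *Cd1d1*, which presents lipids and needs no TAP transporter, was lower, going from 147 counts to 38 with butyrate at 48 h and from 110 to 83 at 72 h (-2.09 and -0.27). *H2-Q2* and *H2-T3* were higher at 48 h (0.89 and 0.55) and lower at 72 h (-0.47 and -0.76), as *H2-D1* was. *H2-Q1* was higher at both times (1.39 and 0.96), as was *Fcgrt*, the neonatal Fc receptor that pairs with *B2m* (0.83 and 0.33). *Mr1*, which presents microbial vitamin metabolites, had 3, 37, 2 and 3 counts in the untreated and butyrate libraries at 48 h and then at 72 h, and did not pass the filter.

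The partners that fold and load class I molecules or trim peptides were set apart from the transporter. All 10 passed the filter, 2 were above and 8 below untreated at 48 h, 4 above and 6 below at 72 h, and 0 differed by 1.5-fold at either time. *Erap1*, the aminopeptidase that trims peptides in the endoplasmic reticulum, went from 2307 counts to 1828 with butyrate at 48 h, and from 2042 to 1582 at 72 h (-0.51 and -0.24). *Pdia3*, the thiol oxidoreductase bound to tapasin, was at -0.37 and -0.23, and *Calr*, the lectin chaperone of heavy chains, at -0.01 and -0.32. *Psme1* and *Psme2*, the interferon-induced proteasome activator, were at -0.20 and -0.14 at 48 h and -0.15 and -0.29 at 72 h. The median of this list was -0.20 at 48 h and -0.19 at 72 h, below that of the members.

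Among 21 regulators of class I and class II transcription and of interferon signalling, 5 were above and 16 below untreated at 48 h, and 6 above and 15 below at 72 h. At 48 h 1 was higher and 1 lower by at least 1.5-fold, *Socs1* (0.64) and *Jak2* (-0.64), and at 72 h 1 was higher, *Socs1* (0.78), and 0 lower. *Socs1* had 11 counts without and 20 with butyrate at 48 h, 13 and 21 at 72 h, and its intervals (-0.44 to 1.90 and -0.24 to 1.94) included 0. *Irf1*, which binds the interferon element of class I promoters, went from 974 counts to 1122 with butyrate at 48 h, and from 808 to 678 at 72 h (0.03 and -0.12). *Rfx5*, *Rfxap* and *Rfxank*, the subunits of the RFX complex, were below untreated at both times, at -0.31, -0.58 and -0.36 at 48 h and -0.06, -0.23 and -0.13 at 72 h. None of the 21 differed by 2-fold at either time.

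Of 20 other interferon-induced genes 12 passed the filter, with medians of 0.67 at 48 h and 0.91 at 72 h. At 48 h 7 were higher and 1 lower by at least 1.5-fold, and at 72 h 7 were higher and 0 lower. *Bst2*, which tethers budding virus particles, went from 149 counts to 435 with butyrate at 48 h, and from 105 to 237 at 72 h (1.37 and 1.30). *Igtp*, an immunity-related GTPase, was at 1.89 and 1.32, and *Ifit2*, an antiviral RNA-binding protein, at 1.48 and 1.52. *Ifit1*, of the same family, was at -0.88 at 48 h and 0.59 at 72 h. *Isg15*, which went from 8 counts to 15 with butyrate at 48 h and from 5 to 14 at 72 h, passed the filter only through its butyrate libraries and is among the genes counted as higher. The order of the medians at the times depended on the filter. They were 0.54 at 48 h and 0.26 at 72 h with no count filter, over 20 genes, and 0.68 and 0.59 over the 7 genes that averaged 50 or more normalised counts.

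The genes whose profile over the 4 libraries was most like the mean profile of the members were found by the Euclidean distance between centred log2 values, among 10706 genes outside these lists that averaged 100 or more normalised counts. They were *Wwox* (distance 0.03), *Tdrd1* (0.04), *Rtn2* (0.06), *Ikbip* (0.07) and *Slc46a1* (0.07). *Wwox* went from 329 counts to 766 with butyrate at 48 h, and from 333 to 424 at 72 h, with log2 fold changes of 1.04 and 0.48. Of the members themselves *Tap1* was the nearest to their mean profile (0.22) and *Psmb8* the farthest (1.95), so the mean describes *Tap1* and *Tap2* better than the genes at either end.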

How the data were processed

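Poly-A RNA from 4 colonoid libraries was sequenced, and the authors deposited whole-number counts per gene without normalisation. Per the labels and the study's methods, reads were quantified with kallisto 0.44.0 and summed to genes with tximport (GRCm38.p6 is the build in the submitters' processing notes), so the counts are rounded estimates. Of the 36144 gene names, 26 had become calendar dates, and the 2 names listed repeatedly were among these. They were left out of the gene results but kept in the library totals and, where they passed the filter, in the scaling. Size factors were computed with DESeq2 1.42.0 on the genes above 10 counts in 2 or more libraries, and TMM factors with edgeR 4.0.16, both run in R 4.3.3. Remaining steps used scipy 1.17.1, pandas 2.3.3, numpy 2.4.6 and matplotlib 3.10.9 under Python 3.11.15. Fold changes used a pseudocount of 1. Intervals were exact Clopper-Pearson intervals on pairs of counts, exact conditional intervals for ratios of genes, and Wald intervals for the difference between the times, all at 95%. Fold changes and intervals were tested on simulated counts. These were drawn with counting error alone, which the intervals assume, so the check covers the calculation and not variation between cultures.

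Library totals were 20790225 to 24207840 counts, which limits single genes with few counts, above all *Nlrc5*. Groups came from the sample labels. The comparisons were butyrate with untreated at each time and 72 h with 48 h within each treatment, without a test, since each condition had 1 library. The genes named were all members, genes of the companion and marker lists, and the 5 nearest profiles, and *Cd68*, *Mr1* and other list genes given singly were picked from the lists after their values were seen. The members, lists and motifs were chosen with earlier results of these data known. Positions and exon lengths were looked up by symbol in GENCODE for GRCm38, and promoter windows from RefSeq, in which *Tap2* and *Nlrc5* were not matched. Alternatives were scaling by TMM or by the total count, a pseudocount of 5, no count filter, a filter that keeps genes averaging 50 or more normalised counts, and leaving out *H2-K1* and *H2-D1*. Coding length was added after the data were seen. The study's other experiments were not analysed here.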

Additional observations from a re-analysis of the deposited data

Results flagged for a closer look

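*H2-D1* had a log2 fold change with butyrate of 0.48 at 48 h and -0.0922 at 72 h, that is, opposite directions at the 2 times, and each counting interval excluded 0. The difference, 72 h minus 48 h, was -0.57 with a counting interval of -0.64 to -0.50. With 1 library per condition, the difference was not tested against replicate error. With total count scaling the value at 72 h was -0.04.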

How the results depend on the processing

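No paired analysis was possible because the groups have no replicates whose numbers could be paired, and for the same reason no library could be left out. A model with treatment and time as terms was not fitted. Values close to 0 changed sign: *Tapbp* at 48 h from 0.004 to -0.004 with TMM factors, and with total count scaling *Tapbp* between the untreated libraries from 0.02 to -0.06, *B2m* between the butyrate libraries from 0.002 to -0.03, and the median of the constitutive proteasome genes at 72 h from -0.01 to 0.04. Of the list results, 124 stayed within the median counting interval of the list or, for counts, within 1.5 times. That interval is wide for lists of low counts: the interferon-induced median at 72 h was 0.91, but 0.26 with no count filter. Without *H2-K1* and *H2-D1* the median of the class I genes was 1.08 at 48 h and 0.55 at 72 h. With a filter that keeps genes averaging 50 or more normalised counts, which leaves out *Nlrc5*, the median was 0.48 at 48 h and 0.05 at 72 h, and 1 gene in place of 2 was higher by 2-fold at 72 h. With no count filter the class II median at 48 h was 1.49, the value of *H2-Ob* at 0 and 2 counts. With the filter at 50 the class II median was 2.60 at 48 h and 2.55 at 72 h. With TMM factors 2 members, *Psmb10* and *Tapbp*, had both butyrate libraries below both untreated libraries. Of single-gene values, 115 stayed and 5 moved, all with total count scaling, which shifted the median of all genes at 72 h to 0.05: *H2-K1* was then at 0.10 and *H2-D1* at -0.04 at 72 h, and between the untreated libraries *H2-K1* was at -0.10, *H2-D1* at -0.14 and *B2m* at 0.003. Shares of all genes past a fold moved in 14 of 40 cases, with the filters. With coding length 10 of 40 ranks moved. The cause of these shifts was not tested beyond what each alternative changes. For *Nlrc5*, *Psmb9* and *Tap1*, the difference of the fold change between the times had a counting interval that included 0.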
